A study of Gossypium hirsutum with 24 samples.

Results

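The transcripts described here are those of cotton (Gossypium hirsutum) anthers that stood higher in anthers of 5 mm flower buds than in anthers of both 7 mm and 8 mm buds. A member is a probe set, the group of short probes that reports 1 transcript on an Affymetrix array. Members were chosen on the deposited log2 values by the median of 3 arrays per group: the 5 mm anther median had to be at least 6, and it had to exceed the 7 mm and the 8 mm anther median by at least 1.5 each. Of 23977 probe sets that are not controls, 195 met all 3 conditions. These anther values chose the members and are therefore given below as a description, with no test.

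RNA was measured on 24 arrays in 8 groups of 3. The groups are anthers dissected from 5, 7 and 8 mm buds, buds of the same 3 sizes with the anthers taken out, whole seedlings 5 days after germination, and young leaf of plants 1 month old. No transgene, mutant or treatment is named in the labels. The design text calls the replicates biological without naming the plants behind them, so the spread between arrays may be partly technical. It speaks of stages before, during and after meiosis, and the labels do not say which bud size stands for which stage.

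An anther is the pollen-forming organ of a stamen. Inside its lobes, cells pass through meiosis to become microspores, surrounded by the tapetum, a nutritive layer that feeds them, supplies material for the pollen wall and then degenerates. Gene expression in the anther therefore changes over a short span of bud growth, and transcripts that are plentiful in young anthers can be scarce in somewhat older ones.

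The label of an anther transcript was checked only as far as the names allowed. Of the 195 members, 9 carried a single gene symbol, all of them locus numbers listed as protein coding in the RefSeq gene table of assembly Gossypium_hirsutum_v2.1. Another member carried several symbols and 185 carried none. No product names came with these symbols, so no function is given for any member. Lists of tapetum, meiosis and wall genes by product name could not be searched, and no marker of anther, petal or leaf could be read. By their names, 102 members were Ghi probe sets and 77 GhiAffx probe sets, 52.3% and 39.5% of the members, against 43.1% and 26.9% of all 23977. Gra and GraAffx probe sets were fewer, 7 and 8 members, or 3.59% and 4.1%, against 14.3% and 15.2% of all. Names ending in s_at or x_at mark probes that can bind several related transcripts. They made up 32.8% and 4.1% of the members, against 38.7% and 6.49% of all.

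Across the array as a whole, between 64.5% and 67.1% of probe sets exceeded background on each array. The background of 2.23 is the 95th percentile of 69 control probe sets, 0.075 above the lowest value in the table. The median of all 17666 probe sets tested lay between 7.01 and 7.11 on every array, and all 195 members passed the filter of 3 arrays above background. The rule itself puts at least 2 of the 5 mm anther arrays above background, so it favours passing without ensuring it. Some arrays stood apart in the members. Replicate 1 of the 5 mm anthers lay below both other arrays of its group in 172 members, 88.2%, against 40.8% of all probe sets tested. It did so by at least 2 in 21 members, 10.8%, against 0.238% of all. Replicate 2 of the 5 mm buds was at least 2 below both other arrays of its group in 25 members, 12.8%, against 3.07% of all. Over all probe sets it correlated with those arrays at 0.969 and 0.974, against 0.991 between them. Replicate 3 of the 7 mm buds correlated with the others of its group at 0.973 and 0.967, against 0.997 between them. It was at least 2 below both in 6 members, 3.08%, against 3.62% of all, so it did not stand apart in the members in particular. Replicate 3 of the 5 mm buds and replicate 6 of the 8 mm buds are described with the bud comparisons.

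The 5 mm anther medians of the members ran between 6.01 and 13.70, with a median of 7.91. The 5 mm median exceeded the 7 mm median by a median of 2.17 and the 8 mm median by a median of 2.49. The smaller of these differences, called the margin here, reached 7.09 and had a median of 2.10. The 3 arrays of 5 mm anthers all exceeded the 6 arrays of the larger sizes in 160 members. The same held for 14.7% of all probe sets tested, and since the rule used these arrays nothing is read from that count. At the edges of the rule, the lowest 5 mm medians inside it were both 6.01, against 5.97 and 5.95 for the nearest probe sets outside. The smallest differences from 7 mm anthers were 1.5025 and 1.5039 for the nearest members inside, against 1.4938 and 1.4864 for the nearest outside. The smallest from 8 mm anthers were 1.5074 and 1.513 inside, against 1.4998 and 1.4895 outside. As these are bulk samples, fewer cells of a type and less RNA per cell cannot be told apart.

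**Figure D1:**
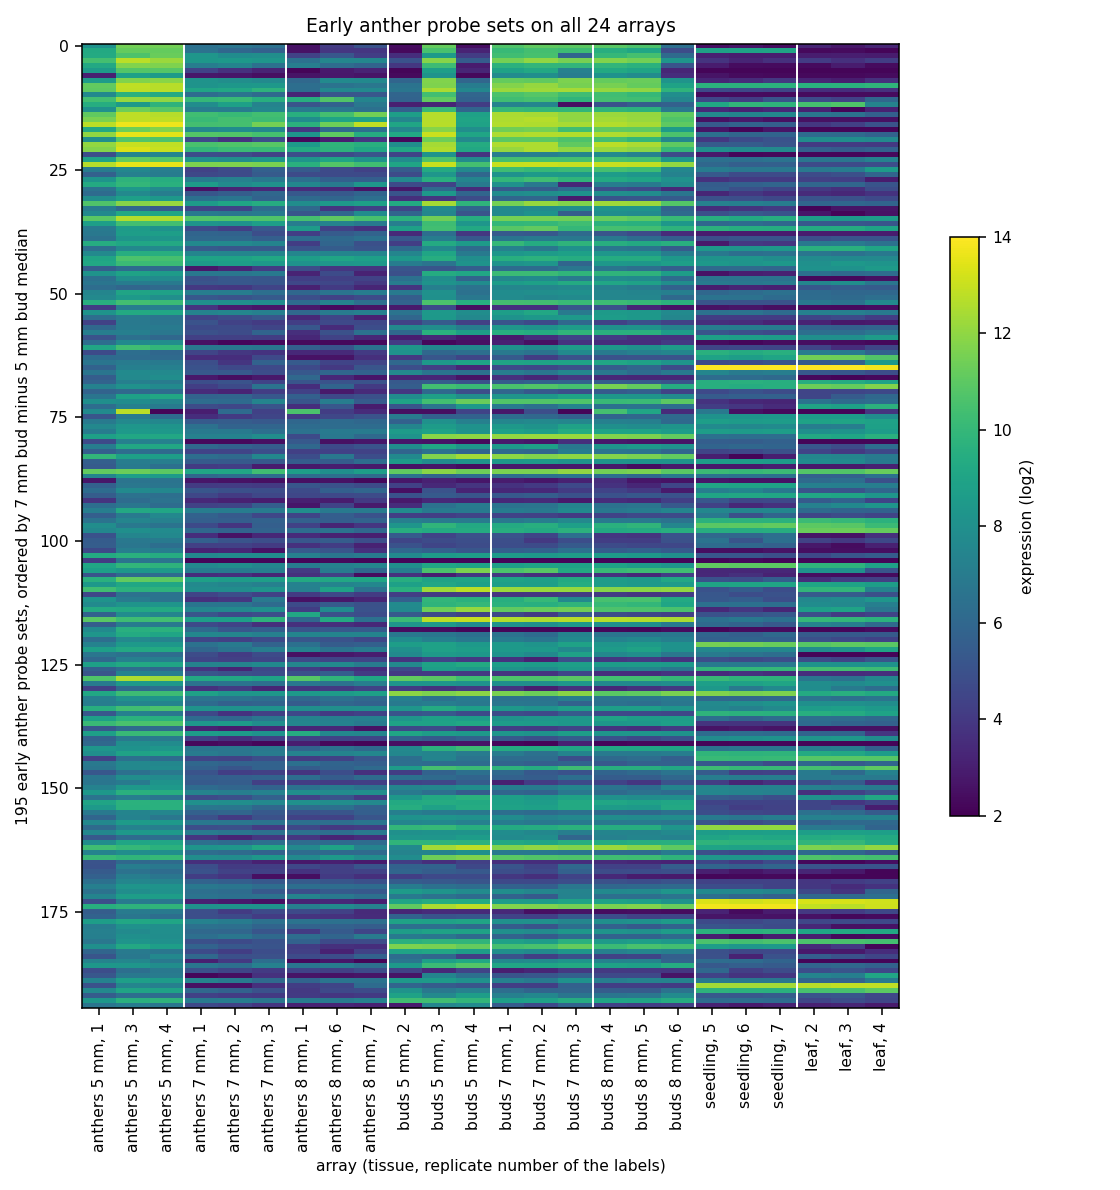
Log2 expression of the 195 early anther probe sets (rows, ordered by the difference between 7 mm and 5 mm bud medians) on all 24 arrays (columns, white lines between groups, replicate numbers as labelled), on a colour scale that starts at 2 and ends at 14. In the top rows replicate 3 of the 5 mm buds is bright where the other 5 mm bud arrays are dark, the 7 mm buds are bright on most arrays, and leaf is dark in most rows.

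Between the larger sizes the members moved less, a step for which the rule asked no minimum difference. The 8 mm anther median was within 1 of the 7 mm median in 154 members, at least 1 below it in 38 and at least 1 above it in 3. These are 79.0%, 19.5% and 1.54% of the members. Over all probe sets tested those shares were 90.5%, 5.8% and 3.7%. Both sizes entered the rule, so this too is a description and nothing is read from the difference in shares.

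Of the locus genes, LOC107946138 had the largest margin. Its log2 values were 11.99, 13.54 and 13.46 in 5 mm anthers, 10.79, 10.74 and 10.46 in 7 mm anthers, and 8.21, 11.00 and 9.43 in 8 mm anthers. The 5 mm arrays all lay above those of both larger sizes, with replicate 1 the lowest of the 3. A further probe set of this gene, not a member, had a 5 mm anther median of 4.89 and medians of 2.18 in both larger sizes, so it too was highest at 5 mm.

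LOC107933118 had 5.04, 7.45 and 7.19 in 5 mm anthers, 2.52, 2.59 and 3.66 in 7 mm anthers, and 4.16, 4.49 and 6.18 in 8 mm anthers. It is 1 of the 3 members whose 8 mm median lay at least 1 above the 7 mm median, and the lowest 5 mm array fell below the highest 8 mm array. LOC107946937 moved in steps through the sizes, with 6.70, 6.47 and 6.31, then 4.80, 4.14 and 4.74, and 2.52, 2.76 and 2.94 in 8 mm anthers. None of its 3 anther groups overlapped another.

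LOC107928801 had 5.92, 6.88 and 6.71 in 5 mm anthers, 4.71, 4.18 and 4.83 in 7 mm anthers, and 4.26, 3.15 and 4.39 in 8 mm anthers. LOC107930335 had 6.54, 8.19 and 8.25, then 6.07, 6.05 and 5.65, and 6.27, 6.09 and 6.48 in 8 mm anthers. In both genes the 5 mm arrays lay above all others, but replicate 1 of LOC107930335 did so by only a small step. LOC107934283 had 9.16, 10.23 and 10.21, then 8.84, 8.28 and 8.35, and 8.44, 8.58 and 8.80 in 8 mm anthers, again with the lowest 5 mm array near the other sizes. Another probe set of LOC107934283 had medians at the floor of 2.16 in every anther group.

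LOC107948896 had 8.31, 8.10 and 8.29 in 5 mm anthers, 6.66, 6.70 and 6.80 in 7 mm anthers, and 5.85, 6.54 and 6.08 in 8 mm anthers. LOC107906148 had 7.54, 7.95 and 7.78, then 6.02, 5.80 and 5.83, and 6.27, 6.51 and 6.03 in 8 mm anthers. These genes separated 5 mm anthers from both larger sizes with little spread within groups. LOC107906429 did not: it had 5.63, 7.07 and 7.11 in 5 mm anthers, 5.47, 5.41 and 5.36 in 7 mm anthers, and 5.47, 5.49 and 6.25 in 8 mm anthers, so 1 array of 8 mm anthers exceeded the lowest 5 mm array.

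**Figure D2:**
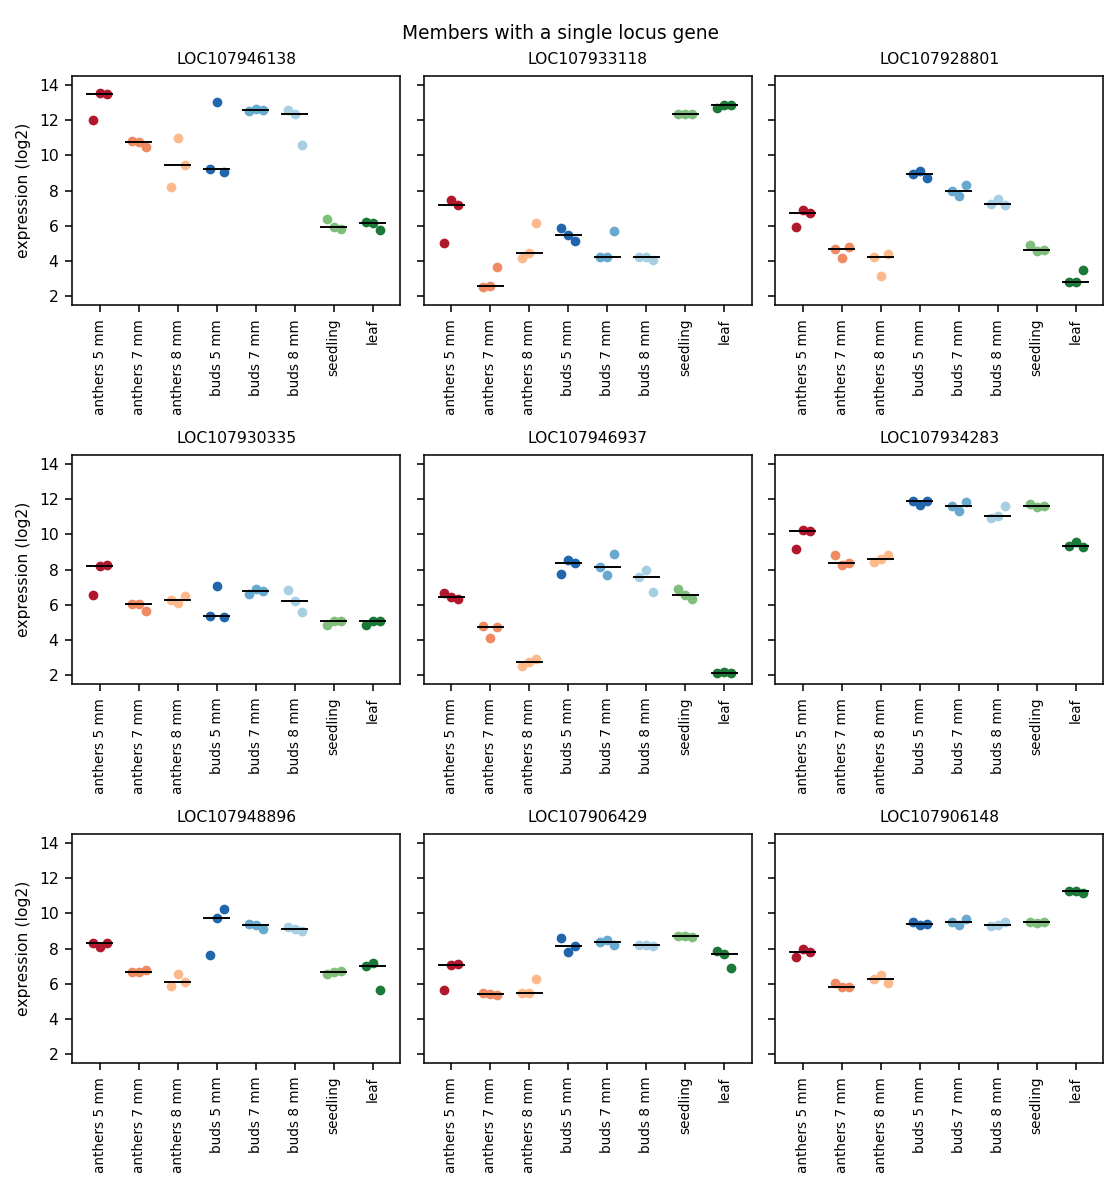
Log2 expression of the 9 members with a single locus gene, 1 panel each, with 1 point per array, 3 arrays per group and a bar at the group median. LOC107933118 is at most 7.45 in 5 mm anthers, against up to 12.85 in leaf, while LOC107946138 is at least 11.99 in 5 mm anthers, against at most 6.41 in seedling and 6.20 in leaf.

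The members with the largest margins had no gene symbol. GhiAffx.63256.1.S1_a_at, with a margin of 7.09, had 8.53, 10.81 and 10.83 in 5 mm anthers, 4.43, 3.72 and 3.19 in 7 mm anthers, and 2.16, 2.84 and 3.20 in 8 mm anthers. Ghi.1479.1.S1_at had 7.97, 10.79 and 10.64, then 4.65, 3.74 and 4.86, and 2.28, 3.02 and 3.97 in 8 mm anthers. Both lay below their 5 mm values on every array of the larger sizes.

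GhiAffx.25696.1.S1_at had 3.04, 8.83 and 8.59 in 5 mm anthers, 2.78, 2.71 and 2.49 in 7 mm anthers, and 2.63, 2.81 and 2.67 in 8 mm anthers. Replicate 1 of the 5 mm anthers was thus near the level of the larger sizes, and the median rule passed the probe set on the other arrays. Ghi.3325.1.A1_at had 6.04, 7.91 and 7.78 in 5 mm anthers and no value above 2.99 in larger anthers. Outside anthers its highest value was 3.13, in a 7 mm bud array, so no array of another group came within 2 of the lowest 5 mm anther array.

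Not every member rests on arrays that go together. The GhirRNA.4.1.S1_s_at probe set, named here after its values were seen, had 7.76, 12.78 and 2.16 in 5 mm anthers and 10.60, 4.17 and 3.49 in 8 mm anthers. Its arrays overlapped between groups and its 5 mm median came from replicate 1. The median SD over the 3 arrays of 5 mm anthers was 0.69 in the members, against 0.22 over all probe sets tested.

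**Figure D3:**
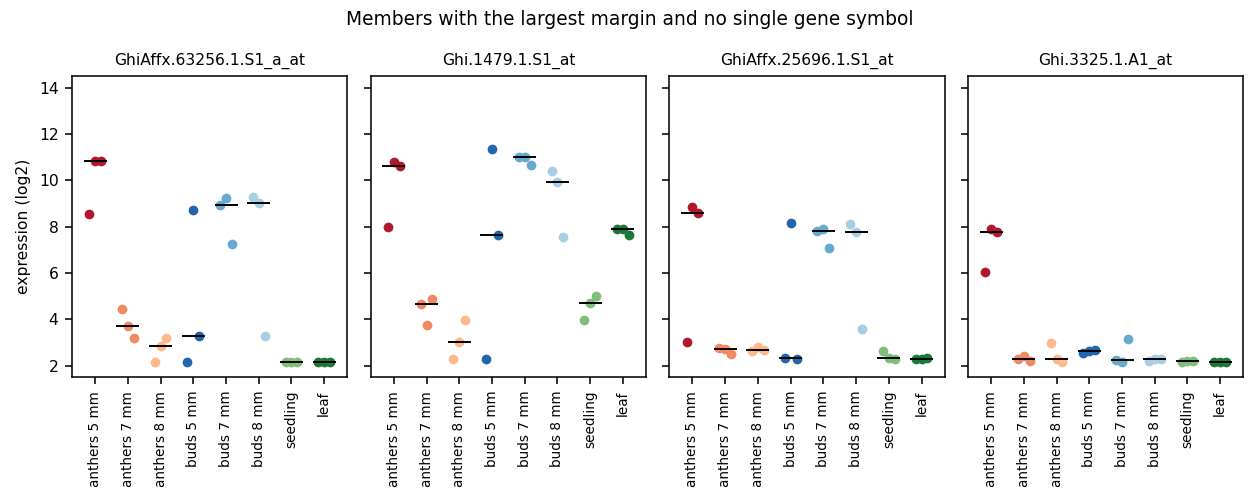
Log2 expression of the 4 members with the largest margin among those without a single gene symbol, with 1 point per array, 3 arrays per group and a bar at the group median. In the first 3 panels replicate 3 is the highest of the 5 mm bud arrays and replicate 6 the lowest of the 8 mm bud arrays, while Ghi.3325.1.A1_at is at least 6.04 in 5 mm anthers and at most 3.13 in the other groups.

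The 5 mm anther median was the highest of the 8 group medians in 104 members, 53.3%, against 23.2% of all probe sets tested. A bud group held the highest median in 49 members, 25.1%, against 18.5% of all, and leaf or seedling in 42, 21.5%, against 31.5% of all. Medians of at least 6 in all 8 groups were found in 30 members, 15.4%, against 48.2% of all. The rule allows no member to be highest in 7 mm or 8 mm anthers, where 15.1% and 11.7% of all had their highest median. The shares of members in the other groups are raised by this, so no excess over all is read from them. No test is given for 5 mm anthers against other tissues, because the rule used the 5 mm anther arrays.

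Against buds of the same size, the 5 mm anther median was at least 1 higher in 108 members and at least 1 lower in 37. These are 55.4% and 19.0%, and the shares of all probe sets tested were 12.3% and 14.4%. Among the 10512 tested probe sets that also had a 5 mm anther median of at least 6 but were not members, 14.9% were at least 1 higher in 5 mm anthers. Against seedlings, 137 members were at least 1 higher in 5 mm anthers and 31 at least 1 lower, where 22.1% and 18.6% of all were. The counts against leaf were 128 higher and 32 lower, where 21.6% and 18.8% of all were. The arrays of 5 mm anthers were all above those of 5 mm buds in 58 members, 29.7% against 28.9% of all probe sets tested.

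At the larger sizes the order against buds turned. The 7 mm anther median was at least 1 below that of 7 mm buds in 121 members, 62.1%, against 16% of all probe sets tested, and at least 1 above in 11, against 13.1% of all. For 8 mm anthers and buds the counts were 117 below, 60.0% against 14.9% of all, and 7 above, against 11.8% of all. The low anther values entered the rule, so these counts describe the members and test nothing. Bud medians, which the rule did not use, stayed within 1 of each other over the 3 sizes in 121 members, 62.1%, against 92.7% of all.

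**Figure D4:**
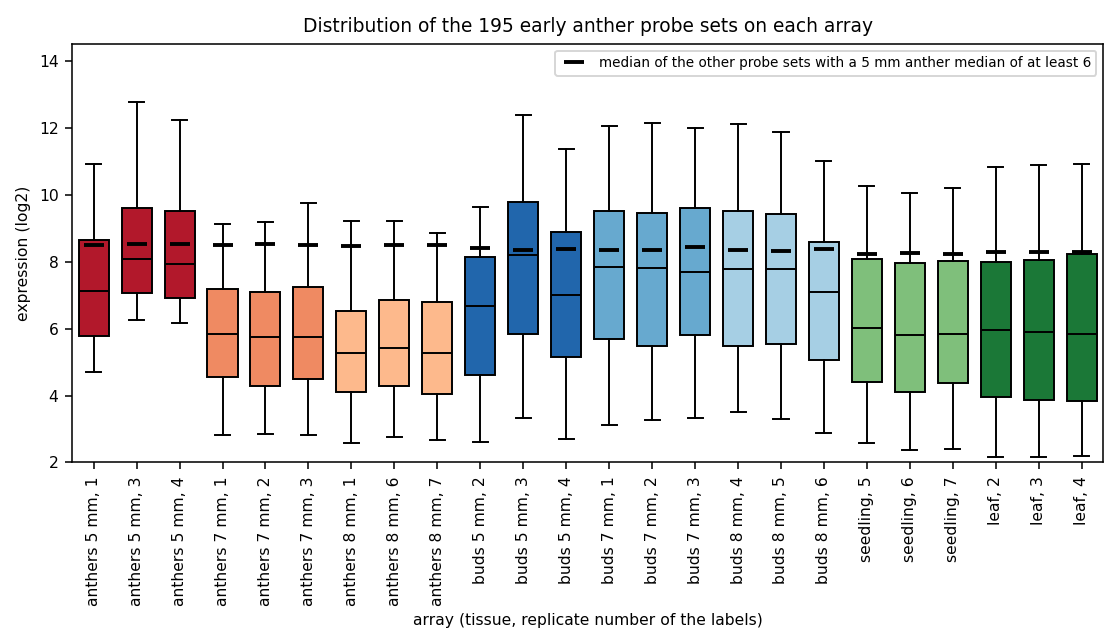
Log2 expression of the 195 early anther probe sets on each array: boxes span the lower to the upper quartile with a line at the median, and whiskers reach the 5th and 95th percentiles. Short black bars mark the median of 10512 other probe sets as high in 5 mm anthers. The member median is 8.08 and 7.94 on the higher arrays of 5 mm anthers and at most 5.85 on arrays of larger anthers, and bud arrays range between 6.66 and 8.18.

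The remaining comparisons are between buds, seedling and leaf, arrays that did not choose the members. They were tested with limma across all 17666 probe sets. The fit also held the anther arrays, so their spread entered each SE and p-value. The median SD of 5 mm anthers was 0.69 in the members, against 0.22 over all probe sets tested. Calls in the members are thus not fully independent of the rule, nor on equal terms with the shares of all. A probe set was called where its adjusted p was under 0.05 and its log2 difference at least 1 in size. Whether the members also moved with size in the rest of the bud was asked first. Between 7 mm and 5 mm buds, 0 members were called higher and 2 lower, against 0.73% of all probe sets tested called higher and 0.232% lower. Between 8 mm and 5 mm buds, 0 were called higher and 6 lower, where 0.906% and 0.651% of all were. At an unadjusted p under 0.05, limma placed 44 members higher and 23 lower in 7 mm buds, 22.6% and 11.8%, against 7.29% and 8.61% of all. In 8 mm buds it placed 23 higher and 31 lower, 11.8% and 15.9%, against 6.53% and 9.89% of all.

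The members called lower in 7 mm buds are named here after their values were seen. Gra.76.1.A1_x_at had 8.76, 8.87 and 9.43 in 7 mm buds, against 10.34, 10.34 and 9.92 in 5 mm buds. The difference was −1.18 ± 0.27 (SE, n = 3 arrays each, adjusted p = 0.0297), and the groups did not overlap. The call was lost without replicate 2 or 3 of the 5 mm buds (adjusted p = 0.0737 and 0.0536) and without replicate 1 or 2 of the 7 mm buds (adjusted p = 0.0813 and 0.0791). GhiAffx.38072.1.A1_s_at had 8.07, 8.07 and 7.49 in 7 mm buds, against 8.90, 8.89 and 8.99 in 5 mm buds, a difference of −1.05 ± 0.20 (SE, adjusted p = 0.0135) that also left no overlap. It was −0.86 without replicate 3 of the 7 mm buds, under the size needed for a call. Both calls were also lost with spike-in scaling, with only the compared groups fitted, and with replicate numbers fitted as a block. Among locus genes, LOC107928801 had 8.95, 9.12 and 8.69 in 5 mm buds, 7.99, 7.69 and 8.34 in 7 mm buds, and 7.22, 7.51 and 7.21 in 8 mm buds. Its 8 mm buds were called lower than its 5 mm buds, by a difference of −1.61 ± 0.31 (SE, adjusted p = 0.00718), and none of the sizes overlapped. This call was lost when replicate numbers were fitted as a block in limma (−1.52, adjusted p = 0.154).

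How many members were called with bud size depended on single arrays. In 29 members, replicate 3 of the 5 mm buds was at least 2 above both other arrays of its group. That is 14.9% of the members, against 0.504% of all probe sets tested, and the 29 made up 32.6% of the 89 probe sets with this pattern. Over these 29 the median was 5.81, 11.18 and 5.97 on the 5 mm bud arrays, 10.69, 10.99 and 10.47 on the 7 mm bud arrays, and 10.52, 10.45 and 7.95 on the 8 mm bud arrays. Replicate 3 of the 5 mm buds thus had the level of the larger buds, and replicate 6 of the 8 mm buds lay between the other 8 mm and the other 5 mm bud arrays. Replicate 6 was at least 2 below both other 8 mm arrays in 21 members, 10.8%, against 0.86% of all, and 17 members showed both features, 8.72% of the members against 0.238% of all.

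Without replicate 3 of the 5 mm buds, 40 members were called higher and 3 lower in 7 mm buds, against 1.82% of all probe sets tested called higher and 0.459% lower. Of the 40, 28 were among the 29 members singled out by that array. In 8 mm buds 22 members were then called higher and 4 lower, where 0.996% and 0.708% of all were. The 29 had been picked by a low level on the remaining 5 mm bud arrays, so their calls are no separate evidence of a difference with size. Which of the 5 mm bud arrays is typical cannot be told from 3 arrays.

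The 29 members had further values in common. Their 5 mm anther median exceeded seedling and leaf by at least 1 in all 29. Against seedling 70.3% of the members and 22.1% of all probe sets tested did so, and against leaf 65.6% and 21.6%. In 25 of the 29, replicate 1 of the 5 mm anthers was also at least 1 below both other anther arrays of its size. Both features together were found in 12.8% of the members, against 0.17% of all. Of the 20 members with the largest margins, 10 belonged to the 29. The rule used the anther arrays, so these counts are a description. Over the 29, the medians per array were 9.23, 11.47 and 11.67 in 5 mm anthers, 8.05, 7.84 and 7.76 in 7 mm anthers, and 6.31, 6.56 and 6.45 in 8 mm anthers. Seedling arrays lay at 3.96, 4.18 and 4.49, and leaf arrays at 3.55, 3.58 and 3.76. Every 7 mm bud array exceeded every 7 mm anther array in 26 of the 29 and in 132 of all 195 members, 67.7%, against 24.6% of all probe sets tested. Over the other 166 members the bud medians were closer, at 6.89, 7.57 and 7.13 on the 5 mm arrays, 7.49, 7.49 and 7.43 on the 7 mm arrays, and 7.24, 7.37 and 6.91 on the 8 mm arrays.

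Array controls were read beside this pattern. The actin control, as the 3′ minus the 5′ probe set, was 3.29, 3.06 and 3.33 on the 8 mm bud arrays and 3.39, 3.38 and 3.28 on the 5 mm bud arrays, so replicates 3 and 6 did not stand apart in it. Replicate 3 of the 7 mm buds did, at 6.28. The mean of the hybridisation spike-ins was 8.58, 8.57 and 9.05 on the 8 mm bud arrays and 8.48, 9.07 and 8.97 on the 5 mm bud arrays, highest on replicate 6 and replicate 3 within each size. The part of bud selection, dissection or RNA amount in the pattern was not tested.

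LOC107946138 shows the pattern. It had 9.22, 13.04 and 9.05 in 5 mm buds, 12.51, 12.62 and 12.60 in 7 mm buds, and 12.59, 12.38 and 10.59 in 8 mm buds. The difference between 7 mm and 5 mm buds was 2.14 ± 0.83 (SE, adjusted p = 0.194) and missed the threshold. GhiAffx.63256.1.S1_a_at had 2.16, 8.70 and 3.28 in 5 mm buds, 8.92, 9.23 and 7.26 in 7 mm buds, and 9.29, 9.0 and 3.29 in 8 mm buds, with a difference between 7 mm and 5 mm of 3.76 ± 1.42 (SE, adjusted p = 0.183). Neither separated the bud sizes on all arrays. LOC107930335 showed a smaller step of the same kind, with 5.35, 7.08 and 5.32 in 5 mm buds, 6.64, 6.88 and 6.81 in 7 mm buds, and 6.83, 6.25 and 5.58 in 8 mm buds. The remaining locus genes did not have replicate 3 apart in this way: LOC107934283 ran between 11.64 and 11.92 and LOC107906429 between 7.79 and 8.60 over the 5 mm bud arrays.

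Set against leaf, the mean of the 3 bud groups was higher in 101 members and lower in 40. These are 51.8% and 20.5% of the members, against 15.9% and 15.6% of all probe sets tested. Of the non-members as high in 5 mm anthers, 19.0% were called higher in buds and 13.4% lower. The median log2 difference was 1.28 over the members and 0.00 over all probe sets tested, and the members ran between −9.22 and 8.74.

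LOC107946937 had 7.75, 8.54 and 8.36 in 5 mm buds, 8.14, 7.67 and 8.89 in 7 mm buds, and 7.59, 7.95 and 6.75 in 8 mm buds, against 2.16, 2.17 and 2.16 in leaf. The leaf arrays were all below background, so the difference is a lower bound, and buds were at least 52.9-fold higher (adjusted p = 3.91e-13). LOC107946138 had 6.20, 6.15 and 5.77 in leaf, below all 9 bud arrays, and the difference between buds and leaf was 5.58 ± 0.67 (SE, n = 9 bud and 3 leaf arrays, adjusted p = 8.1e-07). LOC107928801, with 2.83, 2.83 and 3.52 in leaf, also lay below all bud arrays, at a difference of 5.02 ± 0.25 (SE, adjusted p = 2.75e-12).

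Smaller rises over leaf were called in LOC107948896, LOC107934283 and LOC107930335. LOC107948896 had 7.63, 9.73 and 10.24 in 5 mm buds and between 9.02 and 9.38 in the larger buds, against 7.02, 7.15 and 5.68 in leaf, a difference of 2.58 ± 0.37 (SE, adjusted p = 7.2e-06). The difference was 2.11 ± 0.20 in LOC107934283 (SE, adjusted p = 2.81e-08) and 1.28 ± 0.35 in LOC107930335 (SE, adjusted p = 0.00442). In all of these genes no leaf array reached the lowest bud array. LOC107906429 differed by 0.76 ± 0.26 (SE, adjusted p = 0.0195), under the size needed for a call.

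Other early anther members stood higher in leaf than in buds, and LOC107933118 did so in seedlings too. LOC107933118 had 5.90, 5.49 and 5.16 in 5 mm buds, 4.25, 4.25 and 5.71 in 7 mm buds, and 4.24, 4.25 and 4.10 in 8 mm buds, against 12.69, 12.85 and 12.84 in leaf. It fell by 7.98 ± 0.46 in buds relative to leaf (SE, adjusted p = 2.29e-11). LOC107906148 had between 9.27 and 9.69 in buds, against 11.28, 11.28 and 11.15 in leaf, a difference of −1.81 ± 0.11 (SE, adjusted p = 2.88e-11). Both genes stood above their 5 mm anther level on every leaf array.

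The extremes among members without a symbol, given by their rank in margin and chosen after their values were seen, were wider still. The member of rank 55 had between 7.44 and 12.69 on the bud arrays, against 2.53, 2.54 and 2.56 in leaf, and its difference was 8.74 ± 0.67 (SE, adjusted p = 1.43e-09). The member of rank 56 had between 3.35 and 5.97 on the bud arrays, against 14.10, 14.13 and 13.79 in leaf, and its difference was −9.22 ± 0.33 (SE, adjusted p = 2.12e-14). Its seedling median of 14.11 was near its leaf median of 14.10. Its 5 mm anther values were 5.79, 7.19 and 7.22, far below leaf, though it met the rule within anthers.

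Set against seedlings, buds were higher in 95 members and lower in 42. These are 48.7% and 21.5% of the members, against 14.8% and 14.7% of all probe sets tested. This comparison and that with leaf share the 9 bud arrays. When arrays were scaled on their spike-ins, the split against seedlings was 122 higher and 25 lower, where 42.7% and 6.19% of all were, and the median difference of all probe sets then stood at 0.84. Against leaf it was 118 higher and 28 lower, where 30.6% and 8.15% of all were.

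LOC107946138 had 6.41, 5.95 and 5.85 in seedlings, against which buds were higher by 5.55 ± 0.67 (SE, adjusted p = 9.71e-07). LOC107928801 had 4.92, 4.58 and 4.66 in seedlings, and its difference was 3.36 ± 0.25 (SE, adjusted p = 1.09e-09). LOC107948896 had 6.55, 6.69 and 6.71, with a difference of 2.55 ± 0.37 (SE, adjusted p = 9.29e-06). For these genes all 9 bud arrays lay above the seedling arrays.

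LOC107946937 was also called higher in buds than in seedlings, by 1.36 ± 0.25 (SE, adjusted p = 0.000138), but its lowest 8 mm bud array, 6.75, lay under the highest seedling array, 6.93. LOC107930335, with 4.87, 5.10 and 5.10 in seedlings, differed by 1.28 ± 0.35 (SE, adjusted p = 0.00462) without overlap. With replicate numbers fitted as a block in limma it was 0.83 (adjusted p = 0.256), with no call. LOC107933118 had 12.34, 12.32 and 12.32 in seedlings and was lower in buds by a difference of −7.51 ± 0.46 (SE, adjusted p = 6.12e-11). No call was made for LOC107934283, LOC107906429 and LOC107906148, with differences of −0.10, −0.46 and −0.05, but with spike-in scaling LOC107906148 was called higher in buds, by 1.02 (adjusted p = 0.000294).

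**Figure D5:**
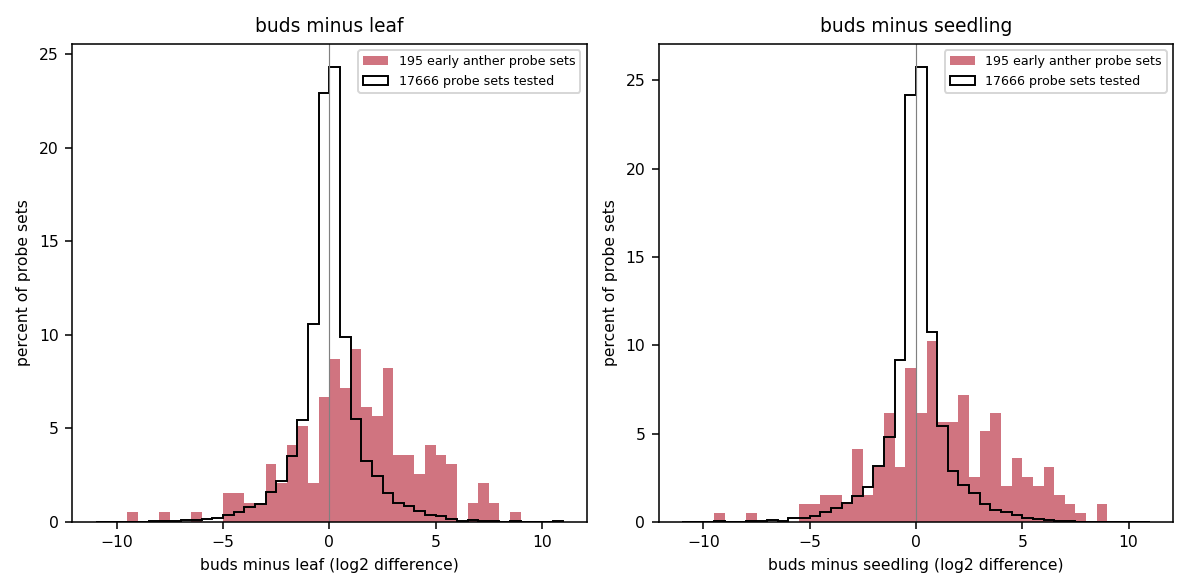
Distribution of the log2 difference of the mean of the 3 bud groups from leaf (left) and from seedling (right), as the percent of the 195 early anther probe sets (filled) and of all 17666 probe sets tested (outline), in bins of 0.5. The members spread to both sides with a heavier right side, and their medians are 1.28 against leaf and 0.98 against seedling.

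Between seedling and leaf, 33 members were higher in seedling and 32 lower. These are 16.9% and 16.4% of the members, against 8.97% and 8.47% of all probe sets tested, so members were called in both directions more often than the background and with no tilt to either tissue. The median difference over members was 0.08.

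LOC107946937, with 6.93, 6.56 and 6.32 in seedling, was at least 20.7-fold higher there than in leaf, where all arrays were below background (adjusted p = 1.9e-09). LOC107934283 had 11.71, 11.56 and 11.61 in seedling, against 9.35, 9.58 and 9.30 in leaf, a difference of 2.22 ± 0.24 (SE, adjusted p = 9.46e-07). LOC107928801 was higher in seedling by 1.66 ± 0.31 (SE, adjusted p = 0.000289). None of these genes had a leaf array as high as a seedling array.

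LOC107906429 had 8.73, 8.72 and 8.63 in seedling, against 7.85, 7.69 and 6.90 in leaf. Its difference of 1.21 ± 0.32 (SE, adjusted p = 0.00596) fell to 0.92 without leaf replicate 4 and to 0.87 with spike-in scaling (adjusted p = 0.205), both under the size needed for a call. LOC107906148 was lower in seedling, with 9.49, 9.45 and 9.50, against 11.28, 11.28 and 11.15 in leaf, a difference of −1.76 ± 0.13 (SE, adjusted p = 4.08e-09). LOC107946138, LOC107933118, LOC107930335 and LOC107948896 differed between seedling and leaf by 0.03, −0.46, −0.00 and 0.03, with no call.

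Members without a symbol showed larger steps between these tissues. Rank 6 by margin had 8.89, 8.95 and 8.99 in seedling, against 2.33, 2.34 and 2.16 in leaf, and its difference was 6.67 ± 1.47 (SE, adjusted p = 0.00142). Rank 78 had 12.02, 12.04 and 12.07 in seedling, against 6.87, 6.79 and 5.85 in leaf, a difference of 5.55 ± 0.35 (SE, adjusted p = 5.11e-10). Rank 94 ran the other way, with 4.17, 3.91 and 3.49 in seedling, against 9.01, 8.83 and 9.69 in leaf, a difference of −5.32 ± 0.62 (SE, adjusted p = 1.78e-06). These members were chosen after their values were seen, and in each the tissues did not overlap.

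Few members shared a name that would place them on the same transcript cluster. The probe sets named GhiAffx.21096 were both members, with 5 mm anther medians of 8.03 and 6.22, against higher leaf medians of 10.54 and 9.38. Of the probe sets named Ghi.598, 2 of 3 were members, and their 5 mm anther medians of 8.40 and 9.60 were above their medians in every other group. Probe sets of the same cluster can report the same transcript, so they are not independent observations.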

How the data were processed

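Biotin-labelled RNA, prepared with a 3′ IVT kit, was read on the Affymetrix Cotton Genome array (labels' protocols). The deposited values are log2 expression. GCRMA, which corrects background, normalizes between arrays and summarises probes, is the tool the authors used, per the submitters' processing notes; version and options: not given in the sources used here. Of all values 26.2% lay at the floor, which compresses differences from it. Values were not normalized again, and all 24 columns were matched to samples by label. Scan dates and slides were not examined. Precision is limited by the 3 arrays per group.

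The 155 control probe sets were left out. Tested were 17666 probe sets with 3 or more arrays above background, the 95th percentile of 69 reporter and tag controls. A linear model of 8 group means on all 24 arrays, with 16 residual degrees of freedom, was fitted in limma 3.58.1 (R 4.3.3). Moderated two-sided p-values were adjusted by Benjamini-Hochberg over the 17666 in each of 5 comparisons, and the fit was tested on simulated data. Against a group below background on every array, a fold is a lower bound set by the background.

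The members and lists were chosen with earlier results of these data known. Named are all members with a single symbol, the 4 largest margins without one, values beside each threshold, and, mostly by rank, others marked as chosen after their values were seen. The platform table listed genes for 743 probe sets. Its genome build was not known here and no sequence table was used, so neither coordinates nor sequences are printed. Alternatives covered the filter, a floor, quantile and spike-in scaling, the arrays fitted, thresholds, the variance prior, name suffixes, a replicate block, the removal of 4 arrays and of each array in turn.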

Additional observations from a re-analysis of the deposited data

How the results depend on the processing

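The counts of members called between bud sizes depended on the processing. The total counts for buds against leaf and buds against seedling moved by less than 1.5 times under every alternative run, but members lower in buds than in seedling numbered 25 in place of 42 with spike-in scaling. Between 7 mm and 5 mm buds the 2 calls became 0 with spike-in scaling, 0 with only the compared groups fitted and 7 without 4 arrays picked in an earlier analysis (replicate 1 of the 5 mm anthers, 2 of the 5 mm buds, 3 of the 7 mm buds and 6 of the 8 mm buds), and lay between 1 and 43 with each array left out. The highest count came without replicate 3 of the 5 mm buds. Other moves over 1.5 times were 4 without replicate 2 of the 5 mm buds, 1 without replicate 1 and 5 without replicate 3 of the 7 mm buds. Between 8 mm and 5 mm buds the 6 calls became 2 with no filter, 2 with spike-in scaling, 1 with only the compared groups and 19 without the 4 arrays, and lay between 1 and 26 with each array left out: 11 without replicate 2, 26 without replicate 3 and 2 without replicate 4 of the 5 mm buds, and 1 without replicate 4, 1 without replicate 5 and 12 without replicate 6 of the 8 mm buds. These counts pool both directions. For 7 mm buds, the 7 were 3 higher and 4 lower, and the 5 were 3 higher and 2 lower. For 8 mm buds, the 19 were 5 higher and 14 lower, the 11 were 2 higher and 9 lower, and the 12 were 6 and 6. With the replicate block the bud counts were 1 and 0. The 1 was called higher in 7 mm buds, so no lower call remained with that block. The count between seedling and leaf was then 43 in place of 65, with 18 in place of 32 lower in seedling. Over 11 same-numbered pairs of bud, leaf and seedling arrays, the correlation of deviations lay between −0.164 and 0.146. The numbers thus gave no sign of pairing among those groups, and pairs of anthers with buds were not checked. The rule gave 519 members with a difference of 1, 110 with a difference of 2 and 123 without s_at and x_at probe sets. With each anther array left out it gave between 119 and 238, the lowest without replicate 3 and the highest without replicate 1 of the 5 mm anthers. Membership itself also changed. Of the members under the main rule, 104 were kept without replicate 3, 111 without replicate 4 and 189 without replicate 1 of the 5 mm anthers. Between 179 and 186 were kept with an array of larger anthers left out, and 132 by the mean. The 38 members lower in 8 mm than in 7 mm anthers became 74 at a difference of 0.5 and 18 at 1.5, and the 3 higher became 16 at 0.5 and 6 by the mean. For the genes and probe sets named, over 5 comparisons each, the called differences were recomputed 867 times and 839 kept their call, and those not called were recomputed 873 times and 851 stayed without one. Of the 28 losses 9 came with the replicate block, among them LOC107906429 between seedling and leaf (adjusted p = 0.118). Of the 22 gains 11 came without replicate 3 of the 5 mm buds, among them LOC107946138 in 7 mm buds (3.44, adjusted p = 0.00659), and 1 turned the sign, LOC107906148 in buds against seedling with spike-in scaling (1.015). Spike-in scaling moved the median of all probe sets by 0.46 against leaf and 0.84 against seedling. Signal near background limits what can be read below 2.23.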
